A study of Homo sapiens with 20 samples.

Results

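The genes described here are 10 components of the SMAD arm of TGF-beta signalling and its negative feedback: the receptor-activated SMADs SMAD2 and SMAD3, their shared partner SMAD4, the inhibitory SMADs SMAD6 and SMAD7, the corepressors SKI and SKIL, the ubiquitin ligases SMURF1 and SMURF2, and the membrane protein PMEPA1. They were chosen with earlier results of these data known and picked out by gene symbol. All 10 were found among the 60671 gene identifiers of the count table. RNA was sequenced from hTCEpi, a single human corneal epithelial line that was immortalized with telomerase and so is a culture model rather than corneal tissue. The cells received recombinant human SPARC, a secreted protein that binds collagen and shapes the extracellular matrix, for 24 h in keratinocyte growth medium. The 4 groups were control (0 µg/ml), SPARC 0.05, SPARC 0.5 and SPARC 5 (each number in µg/ml), with 5 samples in each, and all groups shared the line and the medium. The labels do not say whether the 5 samples of a group came from separate cultures, so p-values measure the spread between these samples, which may be technical.

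When a TGF-beta family ligand binds its receptor pair, the type I receptor phosphorylates SMAD2 and SMAD3, which join SMAD4, enter the nucleus and act on target genes. Several targets feed back on the pathway: SMAD7 occupies the receptor and brings in ubiquitin ligases such as SMURF1 and SMURF2, SKIL and SKI bind SMAD complexes and recruit corepressors, and PMEPA1 binds SMAD2 and SMAD3 and keeps them from the receptor. In corneal epithelium the pathway is known for its part in wound repair, where it bears on migration, proliferation and matrix deposition. Most of its control works on proteins, through phosphorylation and degradation, which transcript counts do not measure.

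Counts per sample summed to between 31955358 and 50112286, and mitochondrial genes took between 3.04% and 3.95% of them. KRT5, a keratin of basal stratified epithelium, lay between 10820 and 11670 counts-per-million (CPM, each library scaled by its TMM factor), and 9 of 10 epithelial markers had a mean of at least 1 CPM. Other epithelial markers differed between control and SPARC 5. KRT15 fell from 114 to 53.1 CPM (log2 −1.11, edgeR adjusted p = 2.98e-05) and EPCAM fell (−0.325, adjusted p = 1.11e-12). KRT14 (0.49, adjusted p = 3.92e-05) and TP63 (0.09, adjusted p = 0.00536) rose. KRT12, the keratin of differentiated cornea, reached at most 0.112 CPM, while 6 stromal markers summed to at most 0.996 CPM, with KERA at 0 in all libraries. The 4 immune markers summed to between 0.440 and 1.87 CPM, and 6 endothelial and melanocyte markers to between 2.98 and 4.85 CPM. The sum over 5 goblet markers, 557 to 652 CPM in control and 1075 to 1120 CPM at SPARC 5, came almost wholly from KRT7. Of the others, TFF1 was at 0, and MUC5AC, SPDEF and TFF3 reached at most 0.166, 0.330 and 1.59 CPM. The correlation between a gene's GC content and its deviation in a library lay between −0.01 and 0.27 in the control libraries, against −0.13 to 0.10 in the 15 treated ones. For the 10 genes and other pathway genes, values corrected for GC content and length are therefore given where the correction ends a call or moves the value of a gene that passed by over 1.5 times, and for some others. Corrected values were not taken for the markers. In bulk RNA, more cells that express a gene and more RNA of it per cell cannot be told apart.

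SMAD complexes bind DNA weakly at the letters CAGAC (reverse complement GTCTG), and GTCTAGAC, a palindrome of the AGAC core that does not itself hold CAGAC, is a classical high-affinity site. To show what stands near the starts of these genes, RefSeq windows of 300 bases (250 before to 50 after a start, GRCh38.p14) were searched on both strands. The windows covered 9 of the 10 genes. CAGAC was present for PMEPA1, SMAD7, SKIL, SMAD3, SMURF1 and SMURF2, in 11 of the 19 windows of the 9 genes, against 45.3% of all 35116 windows, and GTCTAGAC only for SMAD6, against 0.202% of all windows. The AP-1 letters TGAGTCA, which cannot overlap CAGAC by more than their ends, were found only in a SMAD3 window, against 4.95% of all. Stretches around some of the matches are shown for the strongest responder, the corepressor SKIL and both inhibitory SMADs, 5′ to 3′ on the gene's own strand, with the matched letters in capitals. PMEPA1 and SMAD7 held further CAGAC matches that are not printed. For SMAD7, distal and proximal name the printed matches of a single window.
PMEPA1, start near the 5′ end of the gene, chr20:57710628-57710727, minus strand, within an exon of the antisense RNA NKILA: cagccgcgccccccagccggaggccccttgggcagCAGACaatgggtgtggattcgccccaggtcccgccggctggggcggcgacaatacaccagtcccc
PMEPA1, inner start, chr20:57690737-57690836, minus strand, within an intron of the longest gene model: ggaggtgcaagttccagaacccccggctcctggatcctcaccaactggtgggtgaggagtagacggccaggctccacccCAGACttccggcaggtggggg
SKIL, chr3:170357565-170357664, plus strand, upstream of the annotated gene: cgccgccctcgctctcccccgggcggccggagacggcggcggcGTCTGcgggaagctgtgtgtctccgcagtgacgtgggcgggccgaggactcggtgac
SMAD7, distal match, chr18:48951168-48951192, minus strand, untranslated part of the first exon: cggacgccccCAGACctctgaggtt
SMAD7, proximal match, chr18:48951079-48951103, minus strand, untranslated part of the first exon: cttattttgcCAGACgtctcatgcg
SMAD6, chr15:66702214-66702235, plus strand, across the annotated gene start: ccgccaaagtGTCTAGACtggc
A match describes letters in a window, a missing match says only that they are not in it, and no binding was measured. SMAD6, the holder of the palindrome, was close to silent in these cells, while CAGAC was present both in genes that rose with SPARC and in SMAD3, which did not pass the test.

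Before any treatment the 10 transcripts spanned a wide range. Compared per kilobase of exon (GENCODE 29), SKI was the most abundant at 36.4 ± 0.93 CPM per kb (SD, n = 5, as for all group values here), followed by SMURF2 at 11.3 ± 0.36, SMAD3 at 10.0 ± 0.48, SMURF1 at 8.94 ± 0.46, PMEPA1 at 6.69 ± 0.43, SKIL at 5.79 ± 0.30, SMAD4 at 4.92 ± 0.12, SMAD2 at 3.22 ± 0.12, SMAD7 at 2.78 ± 0.35 and SMAD6 at 0.0799 ± 0.0512 CPM per kb. The control samples of SMAD3 and SMURF1 overlapped on this scale, as did those of SMAD2 and SMAD7, so the order within these pairs is not settled, and the SMAD2 level was divided by a gene model whose exons span 36366 bases, with a longest transcript of 34526 bases; how much of it the reads cover was not tested. PMEPA1 kept its place in this order at SPARC 0.5, at 8.94 ± 0.49 CPM per kb, within the spread of SMURF1 (9.12 ± 0.47). At SPARC 5, at 22.4 ± 1.08 CPM per kb, it had moved up, above SMURF2 (14.2 ± 0.67) and behind SKI alone (37.3 ± 1.34).

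At the highest dose, 5 of the 10 genes rose and none fell: PMEPA1, SKIL, SMURF2, SMAD7 and SMURF1, all of them pathway inhibitors, by edgeR's quasi-likelihood test with Benjamini-Hochberg adjustment over 22938 genes and a threshold of 0.05. At an unadjusted p under 0.05, 6 were higher and 0 lower, with the same counts by DESeq2. The share of all genes at that unadjusted threshold was not counted, so these counts have no background beside them. Among all genes tested in SPARC 5 against control, 11.6% passed the adjusted threshold, 7.04% as rises and 4.58% as falls. The 10 genes were chosen with earlier results of these data known, so an excess over these shares is no independent support. Rises made up 60.6% of the genes called, or 31.3% with scaling by library size alone. The median log2 fold change was 0.22 over the 10 genes and −0.01 over all genes. The signal-carrying SMAD2, SMAD3 and SMAD4, the corepressor SKI and the scarce SMAD6 did not pass. In 4 genes (PMEPA1, SKIL, SMURF2 and SMAD7) the 5 treated samples all lay above the 5 controls, a separation in that direction seen in 4.8% of all genes.

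**Figure D1:**
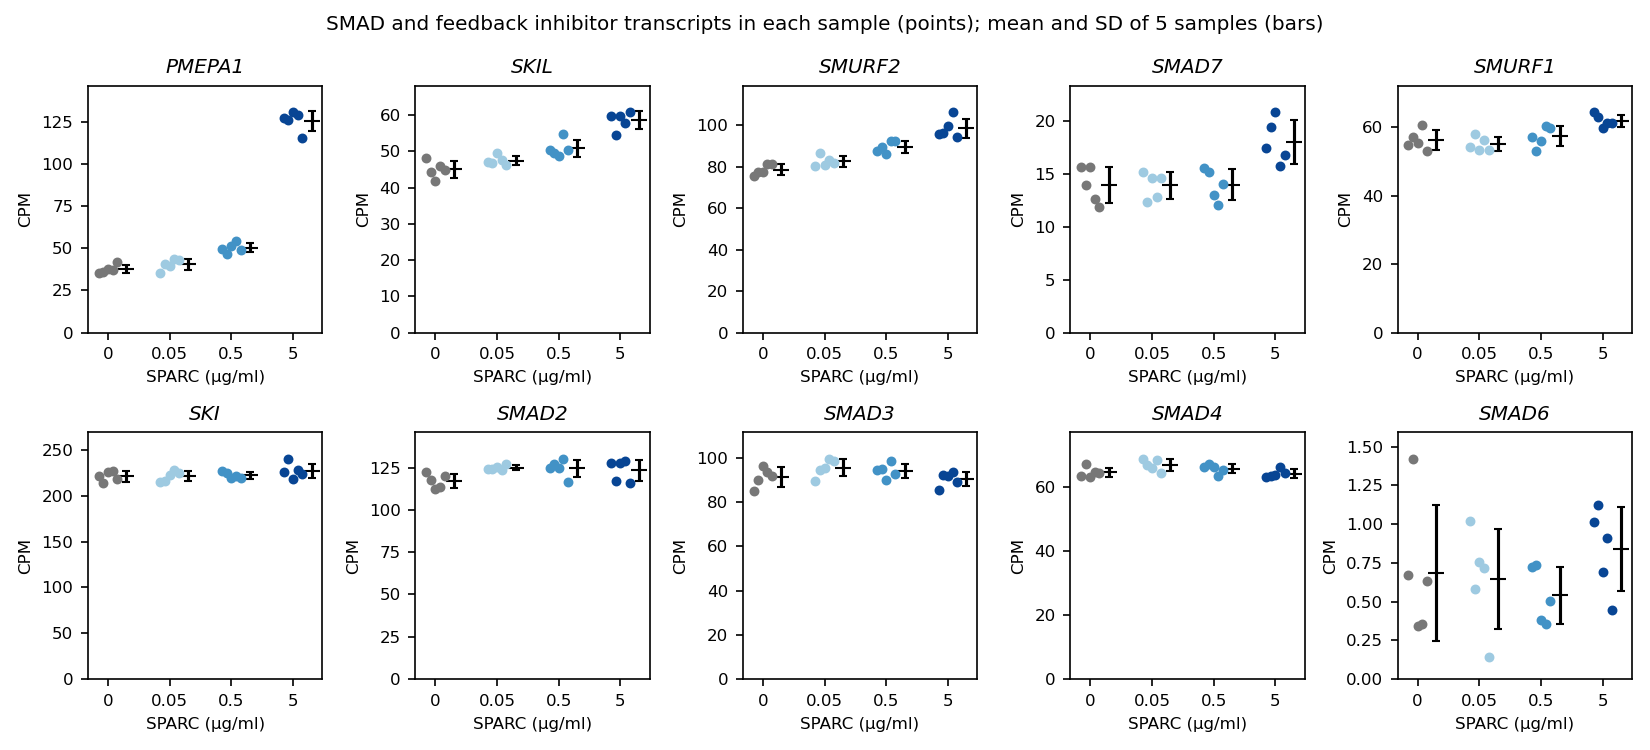
CPM of each of the 10 transcripts (vertical axes, each starting at 0) against the SPARC dose in µg/ml; points are samples, bars the mean and SD of 5. PMEPA1 sits between 115 and 131 CPM at the top dose against 35.4 to 41.6 in control, whereas SMAD3, SMAD4 and SKI overlap control at every dose.

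PMEPA1 (ENSG00000124225, chromosome 20, 57648392 to 57711536, minus strand, GRCh38), the membrane-anchored antagonist that competes for SMAD2 and SMAD3, had the largest response of the 10 genes. Control samples measured 35.4, 36.2, 37.9, 36.9 and 41.6 CPM, and SPARC 5 samples 127, 126, 131, 129 and 115 CPM. Every treated sample was thus far above every control, with replicate 5 the lowest of the treated. The mean went from 37.6 ± 2.42 to 126 ± 6.05 CPM, a log2 fold change of 1.74 ± 0.04 (SE; edgeR adjusted p = 4.73e-47), or 3.34-fold. At SPARC 0.5 the samples measured 49.7, 46.9, 51.5, 54.1 and 49.0 CPM, also all above control, for a log2 fold change of 0.42 ± 0.05 (edgeR adjusted p = 5.25e-10). At SPARC 0.05 they measured 35.2, 40.7, 39.8, 43.6 and 43.1 CPM and overlapped control (log2 0.11 ± 0.05, edgeR adjusted p = 0.447, 95% interval 0.02 to 0.20). The step from 0.5 to 5 µg/ml, 1.32 ± 0.04 on the log2 scale (adjusted p = 1.13e-39), was larger than that from 0.05 to 0.5 µg/ml, 0.31 ± 0.05 (adjusted p = 2.05e-05), their 95% intervals of 1.24 to 1.41 and 0.22 to 0.40 lying apart.

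PMEPA1 shares 343 exon bases with NKILA, a long noncoding RNA on the opposite strand, and the strand setting of the counting is not given in the sources used here. NKILA averaged 43.0 counts a sample against 2383 for PMEPA1, and its own log2 fold change at SPARC 5 was 1.26 ± 0.27 (edgeR adjusted p = 0.000298), and without strand the reads of the 2 genes cannot be told apart where they overlap. Over the 20 samples, the 5 genes whose log2 CPM followed PMEPA1 most closely among 15231 genes were AMIGO2 (r = 0.993), ITGB6 (r = 0.990), TGFBI (r = 0.989), THBS1 (r = 0.988) and KRT7 (r = 0.987). ITGB6 encodes an integrin subunit that binds latent TGF-beta, TGFBI a matrix protein of the cornea named for its induction by TGF-beta, and THBS1 thrombospondin. These samples share 4 dose groups, so any gene that is high at SPARC 5 and intermediate at SPARC 0.5 correlates in this way. The shared groups bear likewise on the closest followers given below for other genes.

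SMAD7 (ENSG00000101665, chromosome 18, 48919853 to 48952052, minus strand), the inhibitory SMAD that blocks the TGF-beta receptor, rose at the top dose only. Control samples measured 15.7, 14.0, 15.7, 12.6 and 11.9 CPM, and SPARC 5 samples 17.5, 19.5, 20.9, 15.8 and 16.8 CPM. The groups just fail to touch, the lowest treated sample lying at 15.78 CPM and the highest control at 15.73 CPM. The log2 fold change was 0.37 ± 0.08 (edgeR adjusted p = 0.000426), or 1.29-fold. At SPARC 0.5 the samples ran from 12.1 to 15.6 CPM with a median of 14.1, inside the control range, and the log2 difference from control was −0.005 with a 95% interval of −0.17 to 0.16. SPARC 5 also exceeded SPARC 0.5 (log2 0.37 ± 0.08, edgeR adjusted p = 0.000696). SMAD7 varied more between samples than any other of these genes except SMAD6, with a biological coefficient of variation of 7.80% against 3.19 to 4.57% for the other eight. Its closest followers were LAMB2 (r = 0.868), HSF2BP (r = 0.852), JPH2 (r = 0.848), NLGN2 (r = 0.828) and MMP14 (r = 0.827); none of these 5 is among the closest followers of PMEPA1.

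SMAD6 (ENSG00000137834, chromosome 15, 66702228 to 66782848, plus strand), the inhibitory SMAD that acts mainly on BMP signalling, was barely detected. Its counts ran from 12 to 47 a sample in control and from 16 to 38 at SPARC 5, or 0.684 ± 0.438 and 0.836 ± 0.270 CPM. The groups overlapped widely, and the 95% interval of the log2 difference, −0.44 to 1.03, holds both no change and a doubling. Its biological coefficient of variation was 35.8%.

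SKIL (ENSG00000136603, chromosome 3, 170357678 to 170396835, plus strand) encodes SnoN, a corepressor that binds SMAD complexes and is itself a SMAD target. Control samples measured 48.3, 44.3, 41.9, 45.8 and 44.8 CPM, SPARC 0.5 samples 50.4, 49.7, 48.9, 54.7 and 50.5 CPM, and SPARC 5 samples 59.9, 54.5, 59.8, 57.7 and 60.8 CPM. Both doses lay wholly above control, and only the 2 treated groups touched each other, through SPARC 0.5 replicate 4 and SPARC 5 replicate 2. SKIL rose by 0.38 ± 0.04 on the log2 scale at SPARC 5 (edgeR adjusted p = 1.27e-11), or 1.30-fold, and by 0.17 ± 0.04 at SPARC 0.5 (edgeR adjusted p = 0.0117). The call at SPARC 0.5 was lost with the correction for GC content and length (log2 0.10, adjusted p = 0.267; the longest SKIL transcript has 33.4% GC), without control replicate 3 (adjusted p = 0.0723) and without SPARC 0.5 replicate 4 (adjusted p = 0.0931). The rise at SPARC 5 was 0.30 with that correction (adjusted p = 6.85e-09). Its closest followers were YWHAZ (r = 0.944), ATL3 (r = 0.937), INPP4B (r = 0.935), PRR5L (r = 0.933) and NFIB (r = 0.931).

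SKI (ENSG00000157933, chromosome 1, 2228695 to 2310119, plus strand), the paralogous corepressor, did not pass at any dose. Control samples ran from 213 to 227 CPM with a median of 222, and SPARC 5 samples from 218 to 240 CPM with a median of 226. The groups overlapped, and the 95% interval of the log2 difference was −0.01 to 0.09, which excludes a rise of the size seen in SKIL. The sign of this difference depended on the scaling, at 0.04 with TMM factors and −0.01 with library sizes alone.

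SMURF2 (ENSG00000108854, chromosome 17, 64542295 to 64662068, minus strand), a HECT ubiquitin ligase that marks the receptor complex and SMADs for degradation, rose at both upper doses. Control samples measured 75.7, 77.6, 77.4, 81.2 and 81.4 CPM, SPARC 0.5 samples 87.5, 89.4, 86.2, 92.3 and 92.6 CPM, and SPARC 5 samples 95.7, 96.4, 99.5, 106 and 94.5 CPM. These 3 groups did not overlap, and SPARC 5 lay wholly above SPARC 0.5 in 3.19% of all genes. The SPARC 0.05 samples, at 80.2 to 86.4 CPM, overlapped control and SPARC 0.5. The log2 rise was 0.32 ± 0.03 at SPARC 5 (edgeR adjusted p = 7.40e-13) and 0.19 ± 0.03 at SPARC 0.5 (adjusted p = 0.000269; 0.14 with the correction for GC content and length, adjusted p = 0.00615). SPARC 5 exceeded SPARC 0.5 by 0.14 ± 0.03 (adjusted p = 0.00526), a call that was lost without SPARC 5 replicate 4, the highest sample (adjusted p = 0.0634). Its closest followers were KLF7 (r = 0.954), MAP4K4 (r = 0.951), PPFIBP1 (r = 0.947), BHLHE40 (r = 0.945) and SGPL1 (r = 0.943).

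SMURF1 (ENSG00000198742, chromosome 7, 99027438 to 99144100, minus strand), the second ligase of the pair, showed the smallest of the 5 rises. Control samples measured 54.6, 57.2, 55.3, 60.6 and 52.9 CPM, and SPARC 5 samples 64.3, 62.9, 59.8, 61.2 and 61.1 CPM. The groups overlapped through control replicate 4 and SPARC 5 replicate 3. The log2 fold change was 0.14 ± 0.04 (edgeR adjusted p = 0.0129), or 1.10-fold, and the call was lost with library sizes alone (0.09, adjusted p = 0.127), without control replicate 5 (adjusted p = 0.0537) and without SPARC 5 replicate 1 (adjusted p = 0.0602). At SPARC 0.5 the difference was 0.03 (95% interval −0.05 to 0.11). SMURF1 shares 735 exon bases with TRRAP on the opposite strand, which averaged 9848 counts a sample against 2162 for SMURF1. TRRAP itself differed from control by −0.04 ± 0.03 at SPARC 5 (edgeR adjusted p = 0.415). The closest followers of SMURF1 were YWHAH (r = 0.867), IGFBP3 (r = 0.842), TNC (r = 0.839), UQCRC1 (r = 0.836) and ATXN1L (r = 0.833). IGFBP3 averaged 0.172 CPM in control and 4.48 CPM at SPARC 5, so its level at SPARC 5 helped it reach the mean of 1 CPM required. SMURF2 shares 167 exon bases with CEP95 on the opposite strand, whose difference at SPARC 5 was −0.13 ± 0.06 (adjusted p = 0.13).

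The signal transducers SMAD2, SMAD3 and SMAD4 did not pass at any dose. SMAD3 (ENSG00000166949, chromosome 15, 67063763 to 67195195, plus strand), which binds DNA itself, ran from 84.7 to 96.3 CPM in control (median 91.6) and from 85.2 to 93.3 CPM at SPARC 5 (median 91.8), with a 95% interval of the log2 difference of −0.08 to 0.05. SMAD4 (ENSG00000141646, chromosome 18, 51028394 to 51085045, plus strand), the common partner, ran from 63.2 to 67.0 CPM in control and from 63.0 to 66.4 CPM at SPARC 5, with an interval of −0.08 to 0.07. Against SPARC 0.05, SMAD3 at SPARC 5 was at −0.08 ± 0.03 (edgeR adjusted p = 0.155, 95% interval −0.15 to −0.01), and passed with library sizes alone (−0.12, adjusted p = 0.0107). With the correction for GC content and length SMAD4 at SPARC 5 was at −0.08 (adjusted p = 0.194) against −0.01 without it. SMAD2 (ENSG00000175387, chromosome 18, 47808957 to 47931146, minus strand), the second receptor-activated SMAD, had a slightly higher mean at every dose.

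SMAD2 measured 122, 118, 112, 114 and 120 CPM in control and 124, 124, 125, 124 and 127 CPM at SPARC 0.05. The groups did not overlap, which held in the upward direction for 0.95% of all genes in that comparison, yet the log2 difference of 0.09 ± 0.03 had an edgeR adjusted p of 0.269. It was 0.002 with the correction for GC content and length, where the longest SMAD2 transcript has 40.2% GC. At SPARC 0.5 and SPARC 5 the differences were 0.09 and 0.07 (adjusted p = 0.133 and 0.138), and 0.04 and 0.01 with that correction.

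**Figure D2:**
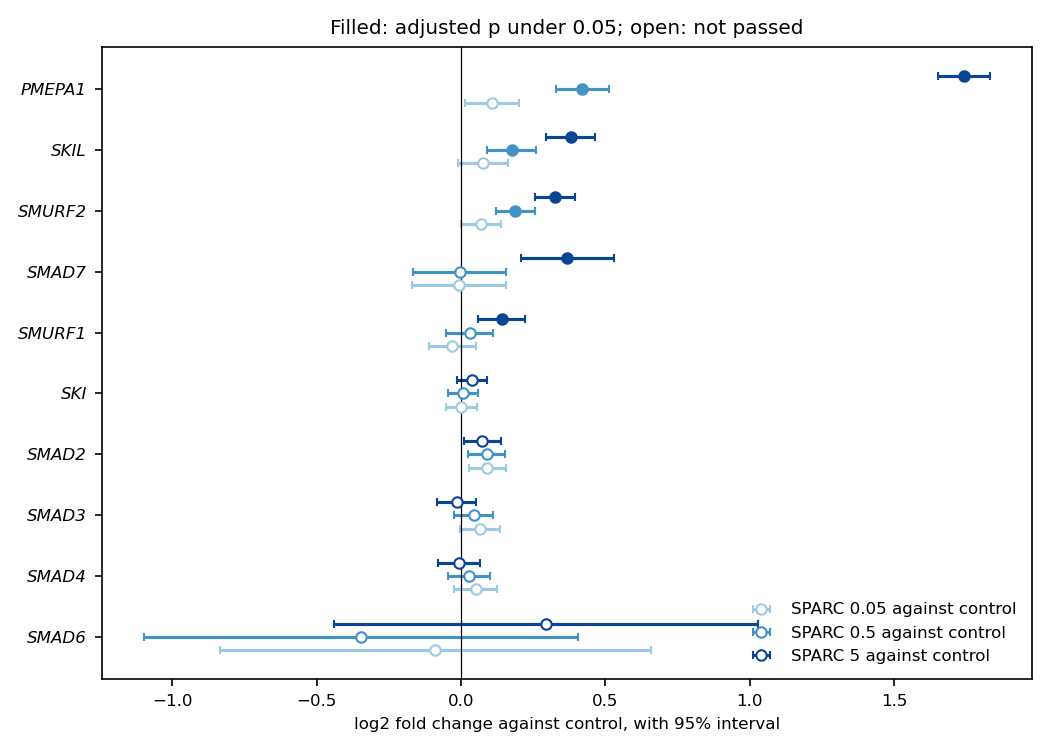
Log2 fold change of each gene against control (horizontal axis) at the 3 doses, with its 95% interval; filled points passed an adjusted p of 0.05. PMEPA1, SKIL and SMURF2 have filled points at 0.5 and 5 µg/ml, SMAD7 and SMURF1 only at 5 µg/ml, and the wide SMAD6 intervals come with under 50 counts a sample.

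Across the dose series, 3 of the 10 genes had risen by SPARC 0.5 (PMEPA1, SMURF2 and SKIL) and none fell, against 2.25% of all genes called in that comparison, 1.36% as rises and 0.894% as falls (60.3% of calls were rises, or 28.6% with library sizes alone). The samples of the same 3 genes lay wholly above control, as did those of 1.71% of all genes. Under the alternative settings 2 to 3 of the 10 genes rose at this dose, with SKIL the one lost. At SPARC 0.05, 0 of the 10 passed by edgeR or DESeq2, against 0.266% of all genes (70.5% of them rises, or 47.8% with library sizes alone). PMEPA1, SMAD2 and SMURF2 had an unadjusted p under 0.05 there and were higher, 3 genes by either tool. For that unadjusted threshold the share of all genes was not counted. SPARC 5 exceeded SPARC 0.5 in 4 genes (PMEPA1, SMAD7, SKIL and SMURF2; 4.8% of all genes called and 3.31% as rises, which were 69% of the calls, or 46% with library sizes alone). It exceeded SPARC 0.05 in 5 (8.28% of all genes called and 5.54% as rises, which were 66.9% of the calls, or 36.3% with library sizes alone). SPARC 0.5 exceeded SPARC 0.05 in PMEPA1 alone (0.179% of all genes called and 0.157% as rises, which were 87.8% of the calls, or 60% with library sizes alone).

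A linear trend over the 4 groups in order of dose called the same 5 genes as SPARC 5 against control, all upward, against 12.1% of all genes and 7.32% as rises (60.4% of the calls, or 30.1% with library sizes alone). The slope per dose step on the log2 scale was 0.55 ± 0.01 for PMEPA1, 0.12 ± 0.01 for SKIL, 0.11 ± 0.01 for SMURF2, 0.11 ± 0.03 for SMAD7 and 0.05 ± 0.01 for SMURF1. The SMURF1 trend was lost with library sizes alone (adjusted p = 0.0817). A slope summarises unequal steps: for SMAD7 the whole rise fell between 0.5 and 5 µg/ml, while SMURF2 had risen by 0.5 µg/ml already. SKIL also passed at 0.5 µg/ml, a call lost with the correction for GC content and length and without control replicate 3 or SPARC 0.5 replicate 4. A test of any difference among the 4 groups called 5 of the 10 genes, against 11% of all genes.

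Ratios of 2 transcripts within a library do not depend on how libraries are scaled. They were taken for 5 pairs at 2 doses against control and compared by a 2-sided exact permutation test over the 252 arrangements of 5 against 5 samples, whose smallest p is 0.00794, with adjustment over the 10 tests. The pairs were chosen after values were seen, so the p-values of these ratios are no evidence beyond the tests of the single genes. The log2 ratio of PMEPA1 to SMAD3 was −1.28 ± 0.09 in control and 0.48 ± 0.07 at SPARC 5, so PMEPA1 went from below SMAD3 to above it in CPM (exact permutation p = 0.00794, adjusted 0.0159, 5 of 5 samples higher). PMEPA1 also outpaced SMAD7, its log2 ratio to it going from 1.43 ± 0.25 to 2.80 ± 0.15 (exact permutation p = 0.00794, adjusted 0.0159). SMAD7 over SMAD3 was higher by 0.38 at SPARC 5 (exact permutation p = 0.0159, adjusted 0.0265), and at SPARC 0.5 differed by −0.04 (exact permutation p = 0.73).

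Within the corepressor pair, the log2 ratio of SKIL to SKI was −2.30 ± 0.09 in control, −2.13 ± 0.07 at SPARC 0.5 and −1.96 ± 0.11 at SPARC 5 (exact permutation p = 0.00794 and adjusted 0.0159 at each dose). These 2 transcripts differ in GC content, 33.4% for SKIL and 60.0% for SKI, and with the correction for it the fitted differences at SPARC 0.5 were 0.10 for SKIL and 0.05 for SKI. Within the ligase pair, the log2 ratio of SMURF2 to SMURF1 was higher than control by 0.18 at SPARC 5 and by 0.16 at SPARC 0.5 (exact permutation p = 0.0238 and adjusted 0.0298 at each dose), with all 5 treated samples above the control mean and the groups overlapping through the highest control. With the correction the fitted differences at SPARC 5 were 0.27 for SMURF2 and 0.14 for SMURF1.

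**Figure D3:**
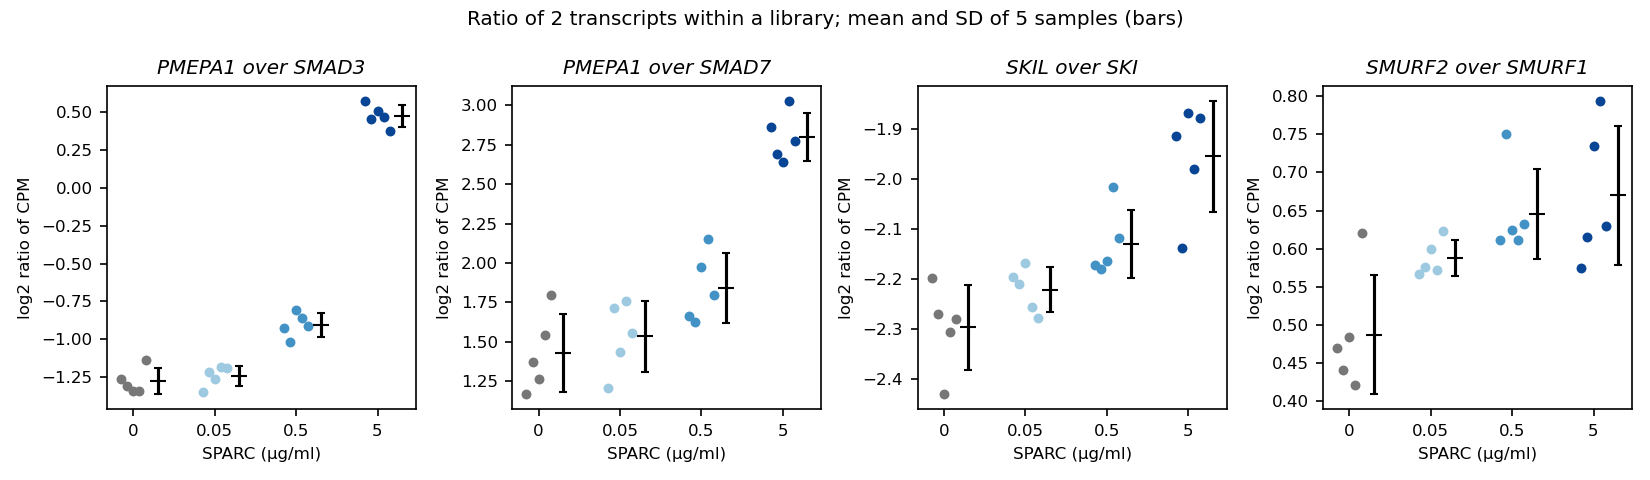
Log2 ratio of the CPM of 2 transcripts in the same library (vertical axes, each with its own range) against the SPARC dose in µg/ml; points are samples, bars the mean and SD of 5. PMEPA1 over SMAD3 moves from −1.28 in control to 0.48 at the top dose, and SKIL over SKI from −2.30 to −1.96.

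For the 3 pairs of PMEPA1 with SKIL, SMURF2 and SMAD7, correlations were lower among samples of equal dose than over the series. The correlation of log2 CPM between PMEPA1 and SKIL was 0.90 over the 20 samples and −0.05 after the group means were taken out. It went from 0.89 to 0.47 for PMEPA1 and SMURF2, and from 0.69 to −0.43 for PMEPA1 and SMAD7. Other pairs went the other way, PMEPA1 and SMAD3 from −0.26 to 0.56. These correlations come from 20 libraries in 4 dose groups and are given as descriptions.

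The wider pathway was read from lists of its other genes, by the same fit, in which 7.04% of all genes rose and 4.58% fell at SPARC 5, and 1.36% rose at SPARC 0.5. None of the 3 BMP-branch SMADs (SMAD1, SMAD5 and SMAD9) passed at SPARC 5, also with 0 at an unadjusted p under 0.05 by edgeR and by DESeq2, and their median log2 difference was 0.03 (−0.01 with library sizes alone). Of 12 SMAD partners and corepressors, which include TGIF1, EP300, CREBBP, HDAC1 and NCOR1, none rose and 1 fell, with a median of 0.01 (−0.04 with library sizes alone). The gene that fell was CTBP1, a corepressor, from 146 ± 4.18 to 136 ± 4.88 CPM (log2 −0.11 ± 0.03, edgeR adjusted p = 0.0049), a call lost with the correction for GC content and length (adjusted p = 0.0531). CTBP1 also fell at SPARC 0.5 (log2 −0.12 ± 0.03, edgeR adjusted p = 0.0145). That call was lost with the correction (adjusted p = 0.246), without control replicate 3 (0.0703) and without SPARC 0.5 replicate 5 (0.0513).

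Of 18 other genes of SMAD and receptor turnover or inhibition, 3 rose and 1 fell at SPARC 5, with a median of 0.04 (−0.002 with library sizes alone). The ubiquitin ligases NEDD4 (log2 0.15 ± 0.03, edgeR adjusted p = 0.000129) and ITCH (0.09 ± 0.03, adjusted p = 0.039) and the deubiquitinase USP9X, which acts on SMAD4 (0.11 ± 0.03, adjusted p = 0.0032), rose. NEDD4L, a ligase for activated SMAD2 and SMAD3, fell by 0.08 ± 0.03 on the log2 scale (adjusted p = 0.0413). With the correction for GC content and length none of the 3 rises passed (adjusted p = 0.0624, 0.653 and 0.505 for NEDD4, ITCH and USP9X), and with library sizes alone those of ITCH and USP9X did not (adjusted p = 0.401 and 0.156). Without the filter on low counts, and with only the groups compared, ITCH (adjusted p = 0.109 and 0.0693) and NEDD4L (0.106 and 0.0616) did not pass, and ITCH missed with DESeq2 (0.0502). The ITCH call was also lost when any 1 of 8 libraries was left out (control replicates 1 and 2, SPARC 0.05 replicates 4 and 5, SPARC 5 replicates 2 to 5) and the NEDD4L call for any 1 of 6 (control replicates 1, 4 and 5, SPARC 5 replicates 1, 3 and 5). USP9X also passed at SPARC 0.5 (log2 0.10 ± 0.03, edgeR adjusted p = 0.0228) and at SPARC 0.05 (0.14 ± 0.03, adjusted p = 0.00346), so its rise was not graded with dose. With the correction for GC content and length neither of these calls passed (adjusted p = 0.461 and 0.273), and with library sizes alone that at SPARC 0.5 did not (adjusted p = 0.117). BAMBI, the decoy receptor, and LDLRAD4, a relative of PMEPA1, were near the limit of detection, with 0.269 and 0.282 CPM in control.

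By contrast, of 18 TGF-beta target genes tested from a list of 20, 14 rose and none fell at SPARC 5, with a median log2 fold change of 0.55. The list was drawn up with earlier results of these data known. The number that rose was 17 with the correction for GC content and length, 13 with library sizes alone and 13 of 17 tested with DESeq2. Fibronectin (FN1) went from 688 ± 48.3 to 2540 ± 92.3 CPM (log2 1.88 ± 0.06, edgeR adjusted p = 9.53e-14). At SPARC 0.5, 7 of the 18 rose, with a median of 0.18. At SPARC 0.05 only FN1 did (log2 0.36 ± 0.06, adjusted p = 0.0114), a call lost with only the groups compared in the fit (log2 0.36, adjusted p = 0.0895) and with the correction (0.32, adjusted p = 0.0716). Of 6 BMP target genes tested from a list of 9, ID3 rose (0.22 ± 0.06, adjusted p = 0.00946), a call lost with library sizes alone (adjusted p = 0.0521) and without SPARC 5 replicate 4 (adjusted p = 0.0538), and ID1 differed by −0.24 ± 0.14 (adjusted p = 0.3).

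Of 11 ligands and receptors tested from a list of 12, TGFB1 (log2 0.21 ± 0.03, edgeR adjusted p = 1.02e-09), the type I receptor TGFBR1 (0.29 ± 0.04, adjusted p = 7.87e-09) and the type II receptor TGFBR2 (0.08 ± 0.02, adjusted p = 0.0145) rose at SPARC 5 and none fell, with a median of 0.06. The TGFBR2 call was lost with library sizes alone (adjusted p = 0.428), without the filter on low counts (adjusted p = 0.101) and without SPARC 5 replicate 1 (adjusted p = 0.0885). TGFBR1 also rose at SPARC 0.5 (0.14 ± 0.04, edgeR adjusted p = 0.0279). That call was lost with the correction for GC content and length (adjusted p = 0.266) and with library sizes alone (0.0825). It was also lost without any 1 of control replicates 1, 3 and 4 and SPARC 0.5 replicates 1, 4 and 5. TGFB2, at −0.21 ± 0.08 (adjusted p = 0.0527), did not pass; with library sizes alone, or with the correction for GC content and length, 2 genes of the list fell.

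**Figure D4:**
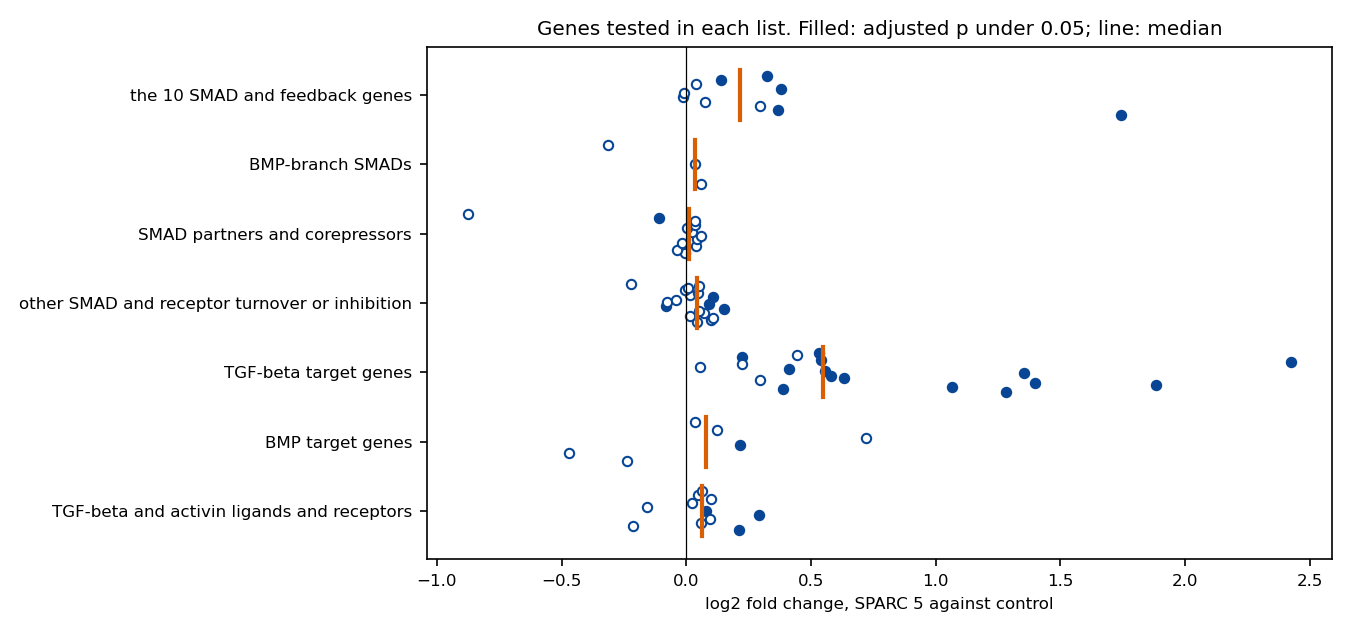
Log2 fold change at SPARC 5 against control (horizontal axis) of every tested gene in the 10-gene set and 6 further pathway lists; filled points passed an adjusted p of 0.05 and lines mark list medians. The median is 0.55 for TGF-beta target genes, 0.22 for the 10 genes and at most 0.08 for the other lists.

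The authors' deposited table of SPARC 5 against control lists 9 of the 10 genes, all but SMAD6. In the authors' deposited table, 5 of the 9 were higher past an adjusted p of 0.05, PMEPA1 at a log2 fold change of 1.74 and SMURF1, the least certain, at 0.12 with an adjusted p of 0.0379. In the authors' deposited tables for SPARC 0.5 and SPARC 0.05, 3 and 0 of the 9 passed. Each table covers 16045 genes, and the share of them that passed was not counted. These counts therefore have no background beside them.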

How the data were processed

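RNA of 20 samples was depleted of ribosomal RNA, primed with random hexamers and sequenced as paired reads, per the labels' protocols. The authors deposited whole read counts per Ensembl gene. Per the submitters' processing notes the tools were STAR 2.7.9a, featureCounts 2.0.3 and Salmon 1.5.2, with edgeR, limma and build GRCh38; the sources used here give neither annotation release nor strand setting. The authors also deposited comparison tables with log2 values and log2 fold changes, p-values and adjusted p-values, and scores (test statistics), per the file headers; only their fold changes and adjusted p-values are quoted.

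Repeated entries (368, of 168 identifiers, each with identical counts) were reduced to 1 per identifier, taking out 0.278 to 0.296% of counts. Genes passing filterByExpr (minimum count 10) in edgeR 4.0.16 (R 4.3.3) numbered 22938, all 10 genes described here among them. Libraries were scaled by TMM, all groups were fitted in 1 quasi-likelihood model (robust), and p-values were adjusted by Benjamini-Hochberg over all genes tested. SEs come from the F statistic; log2 CPM used a prior count of 2. The common biological coefficient of variation was 6.68%, and replicate pairs differed by a chi-square of 4.09 to 9.55 per gene, so no samples were duplicates. The reads carry no molecular identifiers, so PCR copies are counted too. The script was tested on simulated data.

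The 10 genes and the gene lists were chosen with earlier results of these data known. Named genes are the 10, members of the fixed lists, and the 5 genes best correlated with each gene called at SPARC 5, among genes averaging 1 CPM or more; overlapping genes (NKILA, TRRAP, CEP95) and ratio pairs were chosen after values were seen. Exon overlaps and lengths come from GENCODE 29, promoter windows from RefSeq. Alternatives were library sizes alone, median-of-ratios scaling, no filter, only the groups compared, a replicate block, GC and length correction (lowess, span 0.3), both together, DESeq2 1.42.0, and leaving out each sample.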

Additional observations from a re-analysis of the deposited data

Results flagged for a closer look

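Of 40 groups of 5 samples (10 genes at 4 doses), 2 held a sample far from its others by Dixon's gap test at its 95% critical value, which by construction marks about 1 in 20 groups by chance. PMEPA1 in SPARC 5 replicate 5 measured 115.3 CPM, below 126 to 131 CPM in the other samples of the group and still above every control. SKIL in SPARC 0.5 replicate 4 measured 54.7 CPM, above 48.9 to 50.5 CPM in the others, and without that sample the SKIL difference from control at this dose no longer passed (edgeR adjusted p = 0.0931).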

How the results depend on the processing

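The rises of PMEPA1, SKIL, SMURF2 and SMAD7 at SPARC 5 passed under all 8 other settings and without each of the 20 samples, at log2 1.69 to 1.78, 0.30 to 0.40, 0.26 to 0.34 and 0.31 to 0.42. The calls lost by SMURF1, SKIL and SMURF2 are given beside those genes; the cause was not tested. Values near 0 changed sign. With library sizes alone, SKI was at −0.00995, −0.0159, −0.00633 and −0.00394 (SPARC 5, 0.5, 0.05, trend) and SMAD7 at −0.013 (SPARC 0.5 against 0.05). With GC and length correction, SMAD7 was at 0.0368 (SPARC 0.5) and 0.0297 (SPARC 0.05), and SMAD4 at −0.0243 and −0.000318. Leaving out 1 sample gave −0.0444 to 0.00556 for SMAD3 and −0.0193 to 0.00332 for SMAD4 at SPARC 5; at SPARC 0.5, −0.0564 to 0.0434 for SMAD7, −0.522 to 0.101 for SMAD6 and −0.00205 to 0.0174 for SKI; at SPARC 0.05, −0.0593 to 0.0394, −0.317 to 0.359 and −0.00733 to 0.0117; and −0.0376 to 0.0509 for SMAD7 at SPARC 0.5 against 0.05.

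Genes called over the whole table at SPARC 0.05 numbered 61, and 14 with the correction, 174 with DESeq2 and 22 to 82 without 1 sample. At SPARC 0.5 against 0.05 they numbered 41, and 70 without the filter, 80 with only the groups compared, 81 with DESeq2 and 15 to 52 without 1 sample. At SPARC 0.5 they numbered 517, and 267 to 608 without 1 sample (267 without SPARC 0.5 replicate 4, 333 without control replicate 3).

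Replicate numbers paired the samples weakly if at all. Over 30 same-numbered pairs the deviations correlated at −0.035 to 0.044, with a median of 0.0155 against −0.001 for pairs of other numbers. Of the 20 samples, 7 correlated best with their own number. With the replicate block SMAD7 at SPARC 0.5 was at 0.00033 and the count at SPARC 0.5 against 0.05 was 66, against 41 without it. With the replicate block and the correction together SMAD7 was at 0.0419 and 0.0338 and SMAD4 at −0.0241 and −0.000215 (SPARC 0.5 and 0.05), and 34 and 86 genes were called at SPARC 0.05 and at SPARC 0.5 against 0.05. The block alone changed no call among the 10 genes. SMAD6 had 12 to 47 control counts and a biological coefficient of variation of 35.8%; the part of depth in its wide intervals was not tested.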
